A study of Mus musculus with 6 samples.

Results

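The genes described here are 49 genes of G2 and mitosis, without the kinesin motors, among the 22287 genes of a count table from the developing mouse molar root. They were taken from the table by a list of gene symbols, and the rule itself uses no measured value. All 49 were present, and all 49 passed the filter on low counts that left 17305 genes for testing. The tissue was the apical end of mandibular first molars, where the root grows, taken from C57BL/6 pups at postnatal day 7.5.

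The mutant group (3 libraries, replicates 3, 4 and 5) had the genotype Gli1-CreER;Arid1a fl/fl. The control group (3 libraries, replicates 2, 3 and 5) had the genotype Arid1a fl/fl, with the same floxed alleles and no CreER. All 6 samples carry the same treatment protocol in their labels: intraperitoneal tamoxifen in corn oil on postnatal day 3.5, with 1.5 mg given for every 10 g of weight. CreER is a recombinase that tamoxifen activates, here in cells that express Gli1, a Hedgehog-responsive gene of root progenitors. Its presence and the loss of Arid1a cannot be told apart in this design, and cells that never expressed Gli1 keep their alleles. The labels do not say whether a library is 1 pup or several, so the p-values reflect library-to-library spread, which may be in part technical. Levels of Xist, given below, differed between libraries within both groups. In tissue RNA, fewer cells of a type and less RNA per cell cannot be told apart. Libraries held 20453247 to 24255352 estimated counts, and levels are in CPM, counts scaled to a common library size with TMM factors. Arid1a itself, a subunit gene of the BAF chromatin remodeller, stood at 120, 134 and 130 CPM in the mutants, against 210, 202 and 204 CPM in the controls (log2 fold change -0.68, SE 0.07, adjusted p = 0.0129, edgeR). Every mutant library lay below every control library for it.

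Many G2/M genes are transcribed late in the cell cycle and are nearly silent in resting cells. In a tissue, the RNA of such genes can follow the share of cells that are dividing. For which of the genes described here this holds was not tested. Cyclin B with the kinase Cdk1 drives entry into mitosis, condensin and topoisomerase II compact the chromosomes, and the kinetochore, built on the centromere, couples them to spindle microtubules. The spindle checkpoint then holds back the anaphase-promoting complex, a ubiquitin ligase, until all chromosomes are attached. Many of these genes are held silent in resting cells by the DREAM complex and activated by MuvB with B-Myb and FoxM1, through a promoter element named CHR (cell cycle genes homology region). Neighbouring CCAAT boxes bind the activator NF-Y. The series title names cell cycle arrest of root progenitors, which is the question these genes bear on.

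Of the 49 genes, 47 had a positive log2 fold change of mutant over control, and 33 had every mutant library above every control library. Over all 17305 tested genes, 52% had a positive fold change and 10.6% had mutant libraries above all controls. The median log2 fold change of the 49 was 0.62, beside 0.01 for all tested genes. The test across all genes, edgeR's quasi-likelihood test with Benjamini-Hochberg adjustment, called 4 of them higher at an adjusted p under 0.05, or 8.16%, where 0.659% of all tested genes were called higher. The 4 were Nek2, Cdca3, Ckap2 and Ncapd2. It called 0 of the 49 lower, where 1.2% of all genes were called lower and 1.86% were called in either direction. With library totals in place of TMM factors, 21 of the 49 were called higher, and the calls over all genes were 411 higher and 109 lower, against 114 higher and 208 lower with TMM. A further 15 had an adjusted p from 0.05 to 0.1, among them Anp32e, the sole member with all mutant libraries below all controls. At an unadjusted p under 0.05, 37 of the 49 and 7.13% of all tested genes were higher. Leaving out any control, or mutant replicate 4 or 5, left 0 members called, while calls over all genes fell to 1 to 28 higher, against 114 with all libraries. In those 5 fits the members' median log2 fold change was 0.53 to 0.72 and 44 to 47 were positive. Leaving out mutant replicate 3 left 12 members called, or 24.5%, against 0.594% of all genes tested there.

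**Figure D1:**
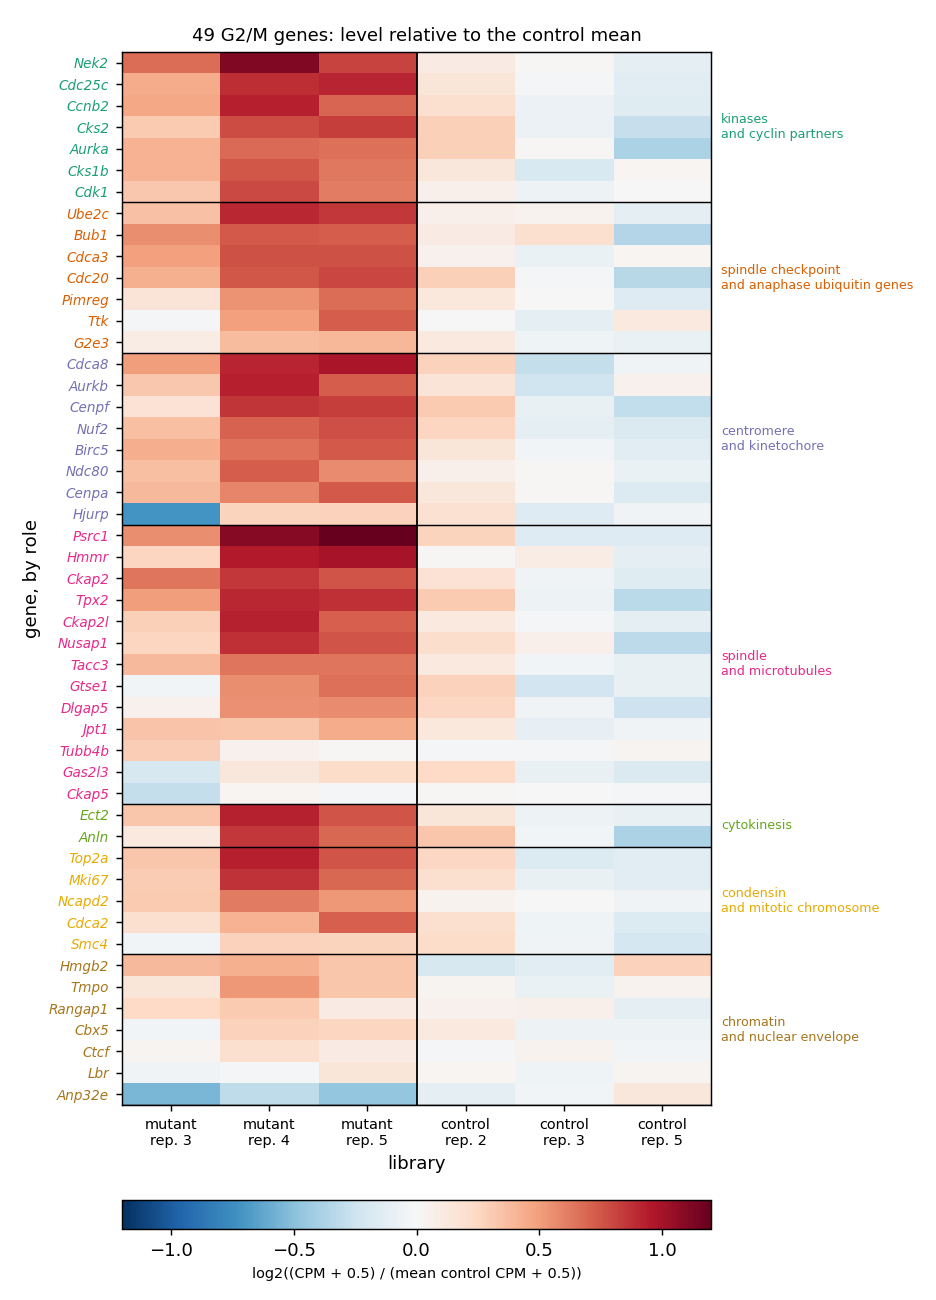
Each row is 1 of the 49 G2/M genes, grouped by role, and each column is 1 library, with the 3 mutants on the left and the 3 controls on the right. Colour gives log2((CPM + 0.5) / (mean control CPM + 0.5)), so red is above the control mean. Mutant replicates 4 and 5 were above the control mean for 47 of 49 genes each and mutant replicate 3 for 40, mostly in paler red.

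The libraries of each group were ordered alike across the genes. Relative to the mean control level, the median log2 ratio of the 49 genes was 0.32, 0.71 and 0.69 in mutant replicates 3, 4 and 5, against 0.14, -0.05 and -0.11 in control replicates 2, 3 and 5. Mutant replicate 3 was the lowest mutant for 45 of the 49 genes, compared with 39.1% of all tested genes, and control replicate 2 was the highest control for 39 of them, compared with 34.3% of all. Mutant replicate 3 still lay above all 3 controls for 34 genes (69.4%, against 30.7% of all tested genes). Mutant replicates 4 and 5 lay above all controls for 46 and 45 genes, against 27.4% and 30.0% of all tested genes. The title of mutant replicate 3 carries a prefix that the other titles lack, and no label explains it. Xist, the RNA of the inactive X chromosome, differed between libraries within both groups, at 799, 0.130 and 1298 CPM in the mutants, against 0.632, 1019 and 2.39 CPM in the controls. With its level as a term in the fit the median log2 fold change of the 49 genes was 0.66, 47 were positive, 0 were called and 35 were higher at an unadjusted p under 0.05 (edgeR).

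The promoter windows of the 4 called genes are shown so that the elements counted over the whole group can be seen in the genes that rose. They are joined by the window of Ccnb2, a mitotic cyclin, and that of Anp32e, whose libraries lay on the other side. Each window runs 5′ to 3′ on the gene's strand, from 250 bases before the annotated start to 50 after it (RefSeq, GRCm38.p6). Capitals mark TTTGAA and CCAAT, each on either strand. TTTGAA was the only sequence of the CHR element searched, so a window without it may hold another form.
Nek2 promoter, chr1:191821223-191821522, plus strand: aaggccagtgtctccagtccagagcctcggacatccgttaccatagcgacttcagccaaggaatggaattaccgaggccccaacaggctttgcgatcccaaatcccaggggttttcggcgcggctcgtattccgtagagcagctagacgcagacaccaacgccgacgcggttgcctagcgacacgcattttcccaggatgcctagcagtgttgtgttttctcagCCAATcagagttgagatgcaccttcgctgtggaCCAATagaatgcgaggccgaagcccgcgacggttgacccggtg
Cdca3 promoter, chr6:124829926-124830225, plus strand: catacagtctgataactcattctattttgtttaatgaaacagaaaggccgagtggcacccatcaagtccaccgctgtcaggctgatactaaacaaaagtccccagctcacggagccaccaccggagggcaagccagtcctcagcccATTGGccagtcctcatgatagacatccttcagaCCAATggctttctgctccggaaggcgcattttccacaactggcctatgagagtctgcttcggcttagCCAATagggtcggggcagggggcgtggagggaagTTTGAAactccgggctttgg
Ckap2 promoter, chr8:22185770-22186069, minus strand: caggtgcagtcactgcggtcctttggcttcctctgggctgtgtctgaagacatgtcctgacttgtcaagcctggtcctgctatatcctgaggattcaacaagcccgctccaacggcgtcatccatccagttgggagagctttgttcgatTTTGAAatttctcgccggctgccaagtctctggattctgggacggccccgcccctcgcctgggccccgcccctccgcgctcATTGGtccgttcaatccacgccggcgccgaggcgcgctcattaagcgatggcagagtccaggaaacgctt
Ncapd2 promoter, chr6:125191537-125191836, minus strand: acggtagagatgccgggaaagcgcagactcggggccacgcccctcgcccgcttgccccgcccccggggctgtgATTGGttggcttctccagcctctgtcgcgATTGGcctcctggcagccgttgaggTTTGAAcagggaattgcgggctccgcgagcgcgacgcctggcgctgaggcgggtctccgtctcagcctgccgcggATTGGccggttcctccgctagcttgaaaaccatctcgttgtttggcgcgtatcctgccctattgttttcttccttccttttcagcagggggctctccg
Ccnb2 promoter, chr9:70421505-70421804, minus strand: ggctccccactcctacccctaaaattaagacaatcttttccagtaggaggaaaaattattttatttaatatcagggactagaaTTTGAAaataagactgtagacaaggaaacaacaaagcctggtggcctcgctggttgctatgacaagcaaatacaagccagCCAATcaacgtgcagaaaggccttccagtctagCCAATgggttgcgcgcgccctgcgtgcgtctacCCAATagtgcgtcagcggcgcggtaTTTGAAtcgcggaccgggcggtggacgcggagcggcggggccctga
Anp32e promoter, chr3:95929007-95929306, plus strand: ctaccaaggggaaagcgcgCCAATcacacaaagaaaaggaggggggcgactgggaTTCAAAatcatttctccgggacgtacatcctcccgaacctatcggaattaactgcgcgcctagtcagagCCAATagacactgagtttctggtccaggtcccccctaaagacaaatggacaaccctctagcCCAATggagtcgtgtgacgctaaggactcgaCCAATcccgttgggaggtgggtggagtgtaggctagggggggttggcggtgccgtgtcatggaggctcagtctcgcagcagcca
Windows were found by symbol for 42 of the 49 genes. The 7 others were Pimreg, Dlgap5, Smc4, Cdc25c, Tpx2, Aurkb and Cdca2. TTTGAA on either strand was in a window of 29 of the 42 genes (69.0%), against 20.2% of the 27025 genes with a window. It began between 50 bases before and 50 bases after the start in 23 of them (54.8%), against 5.72% of all genes. CCAAT on either strand was in a window of 33 (78.6%, against 41.1% of all genes), and 29 held at least 2 (69.0%, against 13.3%). Of 40 TTTGAA matches, 1 overlapped a CCAAT match. The median log2 fold change was 0.62 for the 29 genes with TTTGAA and 0.65 for the other genes with a window. Among the 6 windows printed, Nek2 had no TTTGAA and 2 CCAAT, whereas Anp32e had 1 TTTGAA, which began 195 bases before the start, and 4 CCAAT. Of the 4 called genes, only Cdca3 had TTTGAA within 50 bases of the start, at base 31 after it. In Ckap2 and Ncapd2 it began 101 and 123 bases before the start. A match is a run of letters and does not show binding.

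**Figure D2:**
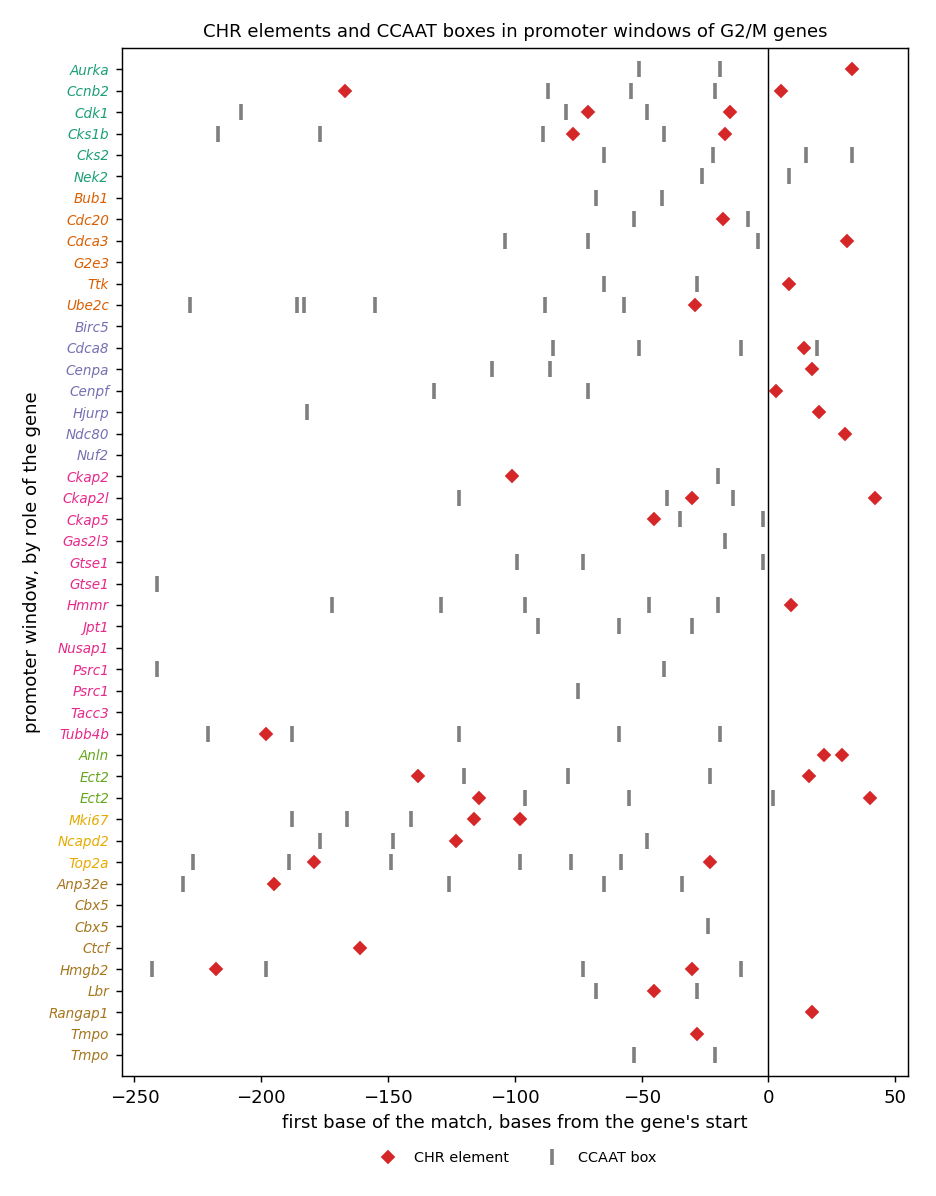
Each row is a promoter window of a G2/M gene (47 windows of 42 genes), coloured by role, and the horizontal axis is the distance in bases from the gene's start. Red diamonds mark TTTGAA and grey bars mark CCAAT, on either strand. TTTGAA matches gather around the start, and CCAAT matches lie mostly upstream of it.

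All 7 kinase and cyclin genes had every mutant library above every control (10.6% of all tested genes did), with log2 fold changes of 0.61 to 0.96 and a median of 0.74. Nek2, a kinase that separates centrosomes (chr1:191821444-191833050, mm10, plus strand), stood at 6.11, 8.46 and 6.81 CPM in the mutants, against 3.94, 3.70 and 3.32 CPM in the controls. The lowest mutant was well above the highest control. It rose, with means of 7.12 ± 1.21 CPM in mutants and 3.65 ± 0.312 CPM in controls (SD, n = 3 each) and a log2 fold change of 0.96 (SE 0.17, adjusted p = 0.0413, edgeR). Cdk1, the kinase of mitotic entry, stood at 12.02, 16.8 and 14.8 CPM in the mutants, against 9.97, 9.08 and 9.52 CPM in the controls. Its groups did not overlap, and it missed the threshold (log2 fold change 0.61, SE 0.14, adjusted p = 0.0851, edgeR). Ccnb2, a B-type cyclin that activates Cdk1, stood at 8.85, 12.4 and 10.4 CPM in the mutants, against 7.25, 5.95 and 5.61 CPM in the controls. Here too the groups were apart and the call was missed (log2 fold change 0.75, SE 0.17, adjusted p = 0.0767, edgeR). The small Cdk-binding subunits Cks1b and Cks2, the Cdk1-activating phosphatase Cdc25c and the centrosomal kinase Aurka did not pass (log2 fold changes 0.63, 0.74, 0.92 and 0.64). Cdc25c was the least abundant member per length, at 0.664 CPM per kilobase in mutants and 0.349 in controls.

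Of the 7 genes grouped under checkpoint and anaphase ubiquitin genes, all had positive fold changes (median log2 0.70), 5 had separate groups and 1 rose. That was Cdca3, a trigger of mitotic entry that promotes breakdown of the kinase Wee1 (chr6:124829547-124833701, mm10, plus strand). By this function it belongs to the role only loosely, and no checkpoint or anaphase gene in the strict sense was called. Cdca3 stood at 12.3, 15.01 and 14.9 CPM in the mutants, against 8.95, 8.10 and 8.76 CPM in the controls. Both groups were tight and far apart, and the log2 fold change was 0.71 (SE 0.12, adjusted p = 0.0363, edgeR). Ube2c, the ubiquitin-conjugating enzyme of the anaphase-promoting complex, its activator Cdc20 and the checkpoint kinase Bub1 had log2 fold changes of 0.75, 0.70 and 0.73 and did not pass (adjusted p = 0.0766, 0.119 and 0.102, edgeR). Ttk, another checkpoint kinase, and G2e3, a ubiquitin ligase expressed in G2, had overlapping groups. G2e3 stood at 16.8, 20.7 and 20.9 CPM in the mutants, against 17.2, 15.3 and 14.9 CPM in the controls, with mutant replicate 3 below control replicate 2. It had the lowest value of this role, a log2 fold change of 0.30 (SE 0.12, adjusted p = 0.279, edgeR). Pimreg, a regulator of mitosis, had a log2 fold change of 0.50 with separate groups (adjusted p = 0.222, edgeR).

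None of the 8 centromere and kinetochore genes passed, although 6 had separate groups and 7 had log2 fold changes of 0.60 to 0.87. Birc5 (survivin), Aurkb and Cdca8 (borealin) encode partners in the chromosomal passenger complex, which corrects faulty attachments. Birc5 had the smallest p of the role, at 10.7, 12.5 and 13.3 CPM in the mutants, against 8.66, 7.58 and 7.08 CPM in the controls (log2 fold change 0.65, SE 0.13, adjusted p = 0.0634, edgeR). Aurkb stood at 8.04, 12.5 and 10.8 CPM in the mutants, against 7.10, 5.29 and 6.59 CPM in the controls (log2 fold change 0.72, adjusted p = 0.118, edgeR). For both genes mutant replicate 3 was the mutant closest to the controls. Cenpa, the histone H3 variant that marks centromeres, stood at 15.2, 17.6 and 19.5 CPM in the mutants, against 12.7, 11.6 and 10.2 CPM in the controls (log2 fold change 0.60, adjusted p = 0.0764, edgeR). Its groups did not overlap. Ndc80 and Nuf2, subunits of the complex that grips microtubules, had log2 fold changes of 0.62 and 0.66 with groups apart. Cenpf had 0.66 with groups that overlapped through mutant replicate 3.

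Hjurp, the chaperone that loads Cenpa, departed from the other centromere genes. It stood at 47.3, 94.1 and 94.8 CPM in the mutants, against 88.5, 70.0 and 75.8 CPM in the controls. Mutant replicate 3 was lower than any other library, and the other two mutants were above every control (log2 fold change 0.01, SE 0.25, adjusted p = 0.990, edgeR). Per kilobase of merged exons its level was 9.45 CPM in mutants and 9.38 CPM in controls, while Cenpa had 2.97 and 1.97 and Ndc80 had 0.866 and 0.563. No exon of another GENCODE M21 gene overlapped its exons. Without mutant replicate 3, its log2 fold change was 0.27 (adjusted p = 0.276, edgeR).

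Of the 13 spindle and microtubule genes, 12 had positive fold changes, 8 had separate groups and 1 rose, with a median log2 fold change of 0.58. The riser was Ckap2, which stabilises spindle microtubules (chr8:22168160-22185819, mm10, minus strand). Ckap2 stood at 9.31, 10.8 and 10.1 CPM in the mutants, against 6.57, 5.62 and 5.17 CPM in the controls. The mutants spanned a narrow range above all controls (log2 fold change 0.80, SE 0.14, adjusted p = 0.0363, edgeR). The largest fold change of all 49 was that of Psrc1, a spindle microtubule regulator, at 1.06 (SE 0.22, adjusted p = 0.0657, edgeR). Tpx2, which activates Aurka on the spindle, Tacc3, which steadies the fibres pulling on kinetochores, and the microtubule binders Hmmr, Nusap1 and Ckap2l had values from 0.58 to 0.82 with separate groups and did not pass. Jpt1 had 0.38 with separate groups (adjusted p = 0.0815, edgeR). Dlgap5, which stabilises fibres at kinetochores, and Gtse1, a microtubule plus-end protein gene, had 0.44 and 0.47 with overlap. The 3 lowest values of this role, picked out after they were seen, were those of Tubb4b, a beta-tubulin gene, Gas2l3, which encodes a linker of actin and microtubules (0.07, adjusted p = 0.899, edgeR), and Ckap5, which encodes a microtubule polymerase. Tubb4b stood at 119, 101 and 97.6 CPM in the mutants, against 95.9, 95.7 and 99.2 CPM in the controls, and mutant replicate 3 was the highest library (log2 fold change 0.13, adjusted p = 0.572, edgeR). Ckap5 stood at 74.9, 93.1 and 90.1 CPM in the mutants, against 92.4, 91.3 and 90.8 CPM in the controls, with mutant replicate 3 alone outside a narrow range (log2 fold change -0.09, adjusted p = 0.723, edgeR). With library totals in place of TMM factors the Ckap5 value was 0.11. Tubulin genes share sequence, so the estimated counts of Tubb4b can include reads of its relatives.

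**Figure D3:**
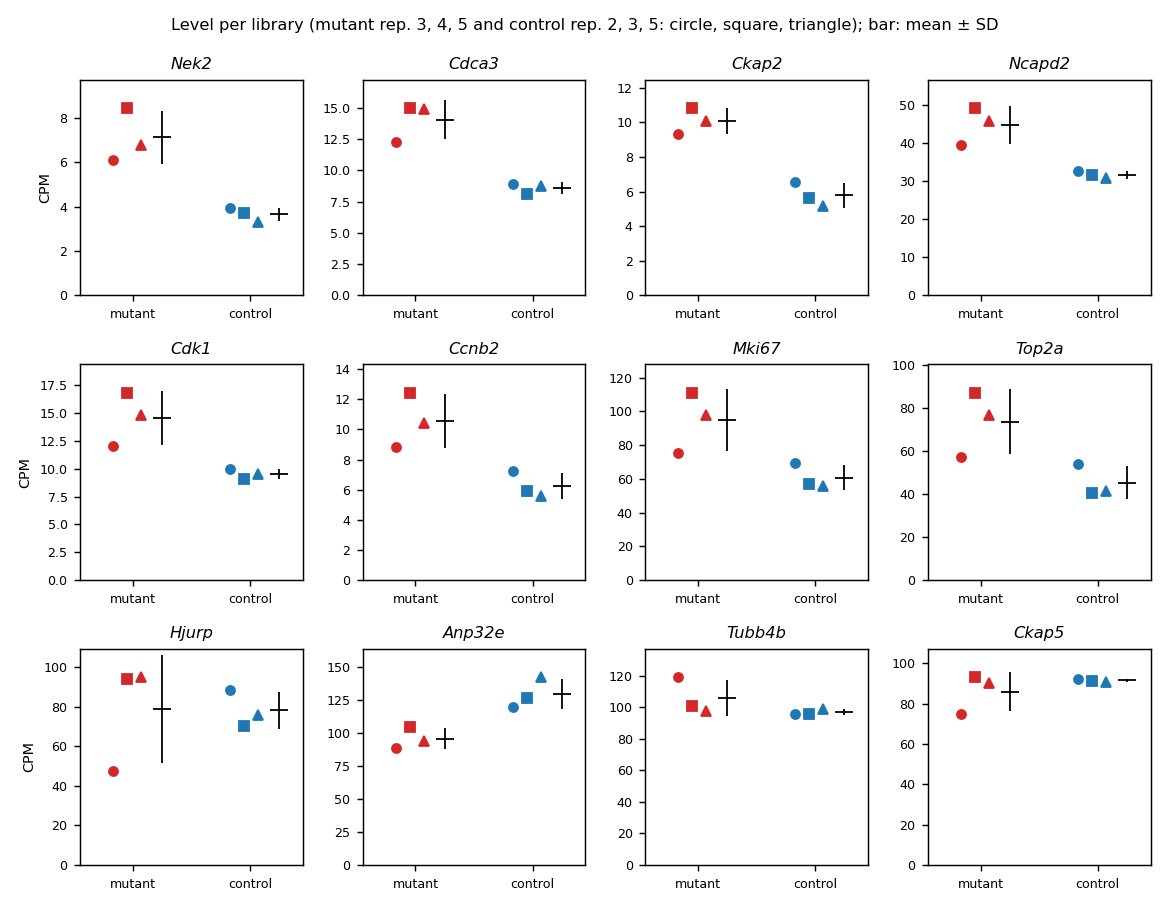
Points give CPM in each library for 12 of the 49 genes, mutants in red on the left and controls in blue on the right, each axis starting at 0; the black bar is the mean ± SD of 3 libraries. The 4 genes that passed the test are in the top row. For Cdk1, Ccnb2, Mki67 and Top2a the groups are also apart, with mutant replicate 3 (circle) closest to the controls, and in the bottom row Hjurp and Ckap5 show mutant replicate 3 below every other library.

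Cytokinesis was represented by Ect2, the exchange factor that activates RhoA at the cleavage furrow, and Anln (anillin), a scaffold of the contractile ring. Ect2 stood at 7.19, 11.1 and 9.79 CPM in the mutants, against 6.23, 5.34 and 5.22 CPM in the controls. Its groups were apart (log2 fold change 0.74, SE 0.18, adjusted p = 0.0989, edgeR). Anln stood at 12.2, 20.6 and 18.4 CPM in the mutants, against 14.3, 11.0 and 8.49 CPM in the controls, so that mutant replicate 3 fell inside the control range (log2 fold change 0.60, SE 0.24, adjusted p = 0.282, edgeR).

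Among the 5 genes of condensin and the mitotic chromosome, all had positive values (median log2 fold change 0.50), 3 had separate groups and 1 rose. Ncapd2, a regulatory subunit of condensin I (chr6:125168007-125191701, mm10, minus strand), stood at 39.4, 49.2 and 45.7 CPM in the mutants, against 32.7, 31.6 and 30.7 CPM in the controls. The controls were within a few CPM of each other, and the log2 fold change was 0.50 (SE 0.10, adjusted p = 0.0491, edgeR). Smc4, an ATPase subunit of both condensins, did not follow it. Smc4 stood at 53.8, 66.8 and 66.2 CPM in the mutants, against 64.1, 53.3 and 47.6 CPM in the controls. These groups overlapped (log2 fold change 0.18, SE 0.13, adjusted p = 0.594, edgeR). Mki67, which coats mitotic chromosomes and is the usual proliferation marker, stood at 75.2, 111 and 98.1 CPM in the mutants, against 69.2, 57.2 and 55.7 CPM in the controls. Top2a, topoisomerase II alpha, stood at 57.2, 87.0 and 76.5 CPM in the mutants, against 53.9, 40.4 and 41.3 CPM in the controls. For both the groups were apart by a small gap between mutant replicate 3 and control replicate 2. Neither passed (log2 fold changes 0.64 and 0.70, adjusted p = 0.0869 and 0.0958, edgeR), and without mutant replicate 3 both did (adjusted p = 0.0366 and 0.0435). Cdca2, which targets a phosphatase to chromatin at mitotic exit, had a log2 fold change of 0.49 (adjusted p = 0.273, edgeR).

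The 7 chromatin and nuclear envelope genes had the smallest differences, with a median log2 fold change of 0.18 and a range of -0.44 to 0.40, and 0 were called. Cbx5 (the heterochromatin protein HP1 alpha) stood at 109, 135 and 134 CPM in the mutants, against 121, 107 and 107 CPM in the controls, with overlap (log2 fold change 0.18, adjusted p = 0.482, edgeR). Ctcf, an insulator protein gene, and Lbr, the lamin B receptor gene, had log2 fold changes of 0.11 and 0.03. Tmpo, which encodes lamina-associated polypeptide 2, Hmgb2, a DNA-bending protein gene, and Rangap1, which activates the Ran GTPase, had values of 0.34, 0.40 and 0.22 with groups apart. Anp32e, the chaperone that removes the histone variant H2A.Z, stood at 88.5, 104 and 93.7 CPM in the mutants, against 120, 126 and 142 CPM in the controls. All mutants were below all controls (10.8% of all tested genes were), and it missed the threshold (log2 fold change -0.44, SE 0.09, adjusted p = 0.0713, edgeR). In the alternatives by DESeq2 and by edgeR's likelihood ratio test, 1 member was called lower.

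**Figure D4:**
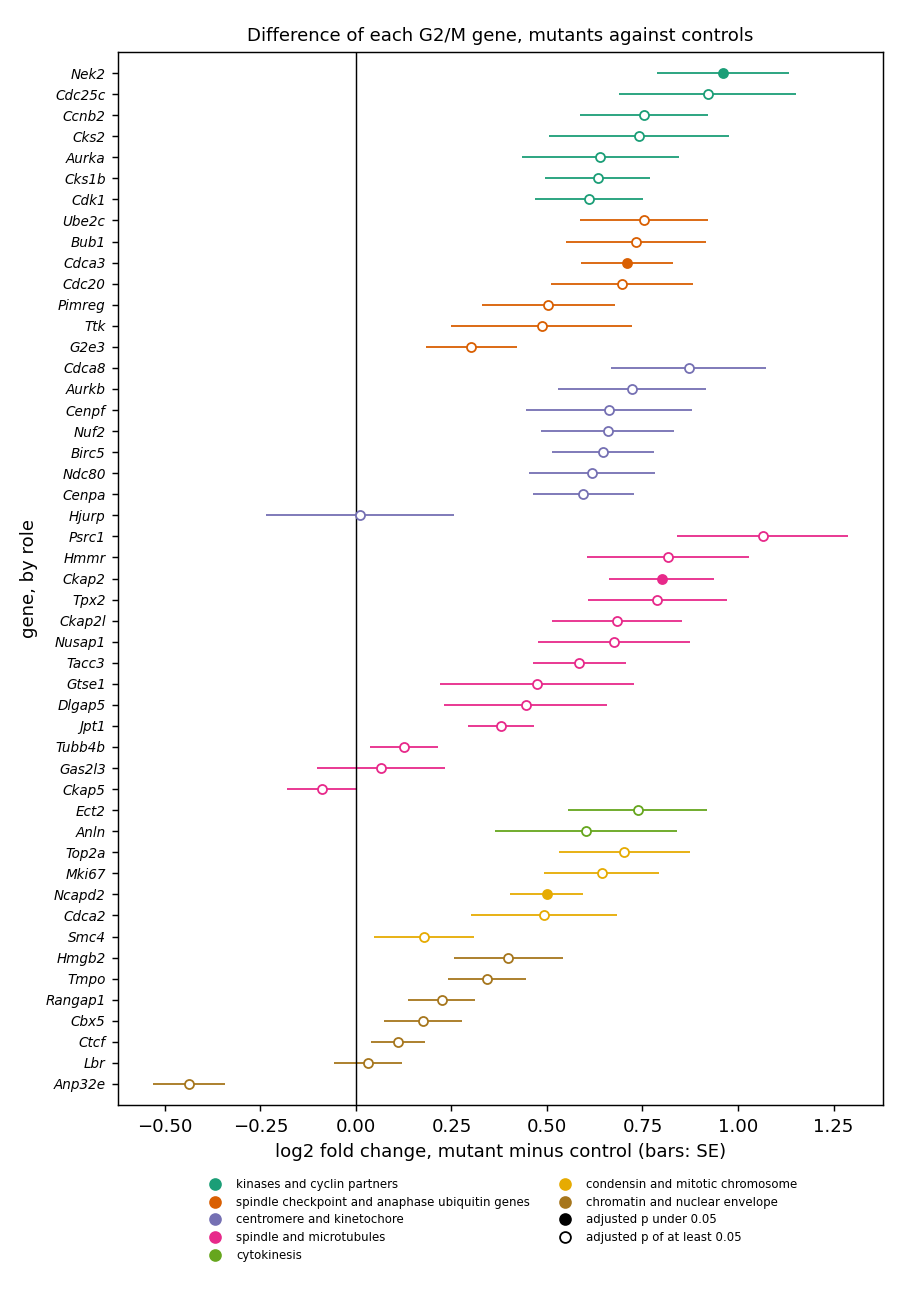
Points give the log2 fold change of each of the 49 genes, mutant minus control, with its SE as a bar, coloured by role, and filled where the adjusted p was under 0.05. Most genes lie between 0.5 and 1, the 4 filled points are Nek2, Cdca3, Ckap2 and Ncapd2, and Anp32e lies at -0.44.

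Levels per length differed by role. The level in controls, per kilobase of merged exons, ranged from 0.349 CPM for Cdc25c to 46.4 CPM for Tubb4b. The 9 most abundant genes in controls on this scale were Tubb4b, Anp32e, Ctcf, Jpt1, Cbx5, Smc4, Ckap5, Hjurp and Rangap1. Their log2 fold changes ran from -0.44 to 0.38. The cut at 9 was made after the values were seen, so this range depends on where the cut was placed. The next in order was Cks1b, at 12.6 CPM per kilobase in mutants and 8.12 in controls (log2 fold change 0.63). Chromatin and nuclear envelope genes had a median of 8.21 CPM per kilobase in controls, kinase and cyclin genes 1.93, and centromere and kinetochore genes 1.69. Split at the median level over all 6 libraries, the upper 25 genes had a median log2 fold change of 0.50 and the lower 24 had 0.64, with 17 and 16 genes whose groups were apart. These are descriptions across genes, which are not independent.

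Mitotic genes outside the 49 had values of the same sign in most cases. Of 69 other mitotic genes tested, 3 rose, 0 fell and 66 did not pass, 63 had positive fold changes, and the median log2 fold change was 0.44. For this list and those below, the shares over all tested genes were 0.659% called higher, 1.2% called lower and 52% positive. Ccnb1, the main mitotic cyclin, stood at 8.73, 9.46 and 9.13 CPM in the mutants, against 4.72, 5.38 and 4.52 CPM in the controls, and rose (log2 fold change 0.90, SE 0.13, adjusted p = 0.0227, edgeR). Its mutant libraries were close to each other, replicate 3 included. The others were Cdc25b, a phosphatase that activates Cdk1 (0.50, adjusted p = 0.0382, edgeR), and Haspin, a kinase of histone H3 in mitosis (1.22, adjusted p = 0.0496, edgeR). Spc25, a partner of Ndc80, did not pass (adjusted p = 0.0669). Among 22 regulators of mitotic transcription, 1 rose: Foxm1, the activator named above, stood at 25.4, 34.5 and 28.5 CPM in the mutants, against 20.5, 16.6 and 16.8 CPM in the controls (log2 fold change 0.71, SE 0.14, adjusted p = 0.04996, just under the threshold, edgeR). The list median was 0.12. Rb1, a repressor of cell cycle entry, had -0.41 and did not pass (adjusted p = 0.159, edgeR), nor did Tfdp2 and E2f8. Of 46 replication and G1/S genes, 43 had positive fold changes and 11 had separate groups with mutants higher (10.6% of all tested genes did). Among the 46, 1 rose, which was Rrm1 (log2 fold change 0.50, adjusted p = 0.0227, edgeR). Rrm2, Pcna and Chaf1b did not pass. Their median was 0.28, beside 0.62 for the 49 G2/M genes. The difference between these medians was not tested.

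Levels of some lists of cell type markers were apart between the groups, and those of others overlapped. The level of a list is the mean of log2(CPM + 1) over its genes, and with 3 libraries against 3 the exact two-sided permutation test can give no p below 0.1, and 14 lists were compared. The 10 odontoblast markers, among them the dentin gene Dspp, stood at 9.07, 8.95 and 8.98 in mutant replicates 3, 4 and 5, against 8.97, 9.01 and 8.93 in control replicates 2, 3 and 5 (exact p = 0.6, adjusted 0.7). They summed to 43300 to 53090 CPM in mutants and 49770 to 51310 CPM in controls, most of it from Col1a1. The sum of the epithelial markers, given below, was larger in both groups. Erythroid markers stood at 3.77, 4.63 and 4.41 in mutant replicates 3, 4 and 5, against 3.73, 3.82 and 3.48 in control replicates 2, 3 and 5 (exact p = 0.2, adjusted 0.311). Mutant replicate 3 was within the control range and the other two mutants were above it. For the G2/M genes, too, mutant replicate 3 was the lowest mutant by the median ratio. The 12 erythroid markers in the table summed to 2371 to 5519 CPM in mutants and 1427 to 1953 CPM in controls, nearly all from globins. The 7 erythroid precursor markers in the table had levels of 1.19 to 1.33 in mutants and 1.11 to 1.29 in controls (exact p = 0.5, adjusted 0.636), and summed to 32.6 to 49.9 CPM in mutants and 30.5 to 41.7 CPM in controls. Most of that sum was Tfrc, the transferrin receptor gene that many dividing cells express, at 46.4, 30.5 and 27.3 CPM in the mutants, against 27.0, 37.6 and 34.8 CPM in the controls. Tal1 was at 2.30 to 3.34 CPM in mutants and 1.42 to 2.48 CPM in controls, and Rhag, Hemgn, Kel, Car1 and Nfe2 were each under 1 CPM in every library. With the erythroid level as a term in the fit, the median log2 fold change of the 49 genes was 0.30, 41 were positive and 0 were called, and over all genes 3 were called higher and 11 lower.

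Epithelial markers were lower in the mutants, at 8.76, 8.77 and 8.31 in replicates 3, 4 and 5, against 8.94, 9.26 and 9.28 in control replicates 2, 3 and 5 (exact p = 0.1, adjusted 0.233). The 12 genes summed to 68440 to 113800 CPM in mutants and 179200 to 278500 CPM in controls, most of it from the enamel genes Amelx, Ambn and Enam. With this level as a term the median of the 49 genes was 0.32, 40 were positive and 0 were called, as was no other gene of the 17305. At unadjusted p under 0.05, 10 of the 49 were higher in the fit with the erythroid term (20.4%, against 5.15% of all genes) and 5 in that with the epithelial term (10.2%, against 5.70% of all genes). The 10 macrophage markers stood at 4.87, 4.94 and 5.27 in the mutants, against 4.77, 4.67 and 4.46 in the controls (exact p = 0.1, adjusted 0.233). Among the 10, 1 rose, which was Cd68 (0.659% of all tested genes were called higher). Mean levels of Schwann cell (2.57 to 2.70 against 2.22 to 2.42) and endothelial markers (5.11 to 5.14 against 4.86 to 5.07) were also higher in every mutant than in every control. Within the 8 Schwann cell genes, 3 had all mutants higher and 1, Mbp, had all mutants lower (log2 fold change -0.48). Of the 10 endothelial genes, 3 had all mutants higher and 0 all mutants lower. Over all tested genes these shares were 10.6% higher and 10.8% lower. The part of these cells in the G2/M values was not tested. Myeloid precursor markers stood at 1.22 to 1.56 in mutants and 1.57 to 1.71 in controls (exact p = 0.1). Of the 5 that were tested, 2 had all mutants lower, and 2 had positive fold changes, among them Ptprc (log2 fold change 0.32). The mean levels of osteoclast, skeletal muscle and dental mesenchyme markers overlapped between the groups (exact p = 0.8, 0.8 and 0.5). Within the 12 dental mesenchyme genes, 5 had all mutants higher and 3 all mutants lower (10.6% and 10.8% of all tested genes did). Gli1, whose promoter drives CreER in the mutants, fell, at 32.7, 39.8 and 39.3 CPM in the mutants, against 91.1, 76.7 and 98.0 CPM in the controls (log2 fold change -1.25, SE 0.12, adjusted p = 0.00753, edgeR). For Gli1 too, the presence of CreER at its promoter and the loss of Arid1a cannot be told apart. Prrx1, a mesenchymal transcription factor gene, rose (log2 fold change 0.72, SE 0.11, adjusted p = 0.0299, edgeR).

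**Figure D5:**
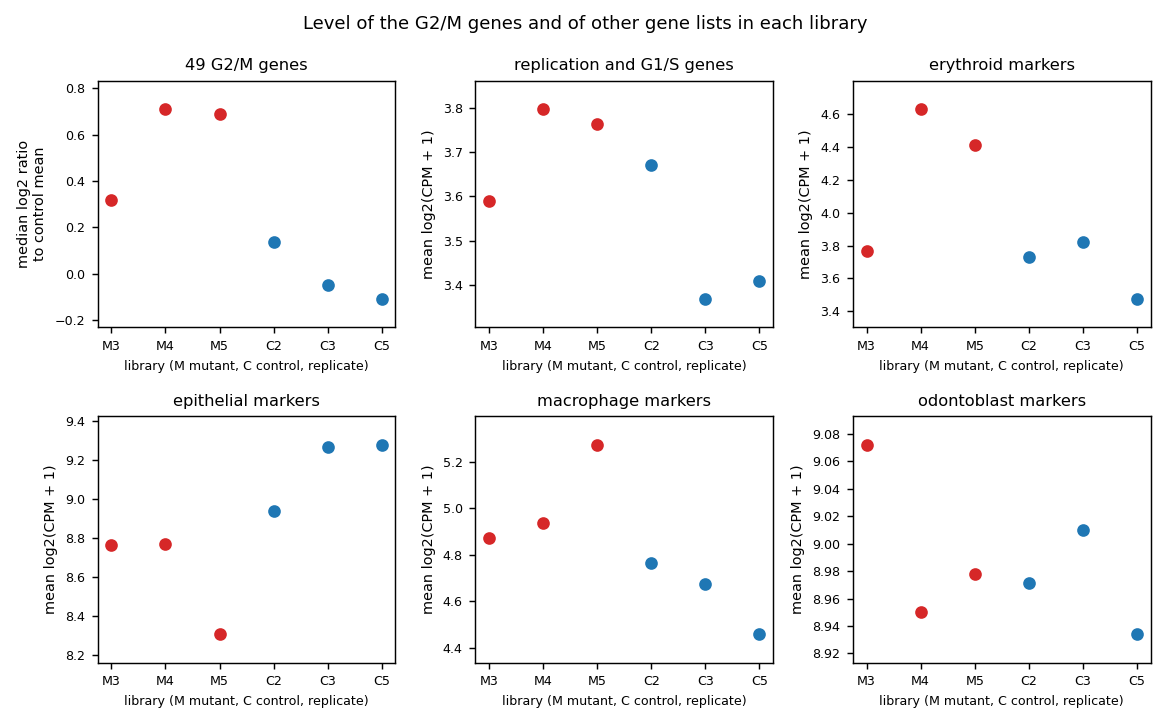
Each panel gives 1 value per library, mutants (M, red) left of controls (C, blue). The first panel shows the median log2 ratio of the 49 G2/M genes to the control mean, and the others show the mean log2(CPM + 1) of a gene list; axes do not start at 0. The G2/M genes are highest in mutant replicates 4 and 5 and intermediate in mutant replicate 3, where the erythroid level is within the control range and the epithelial level is below it.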

How the data were processed

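The authors deposited expected counts per gene, that is, estimated counts that need not be whole, for 6 libraries. Tools named in the submitters' processing notes include STAR 2.6.1d and Partek, on mm10; no source used here names the annotation or says whether strand was used. Exons of 16 of the 49 genes overlap another gene in GENCODE M21, so reads there may not be separated. The deposited normalized signal for 18665 genes equals a library's factor times the expected count plus 1 (largest relative deviation 7.15e-06) and was used for 2 alternatives.

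Expected counts were rounded. Genes were filtered with filterByExpr, scaled by TMM (factors 0.872 to 1.12) and tested with edgeR 4.0.16 in R 4.3.3 (glmQLFit, glmQLFTest, Benjamini-Hochberg over all 17305 genes, threshold 0.05). An SE was obtained from the F statistic, as the size of the log2 fold change over its square root. Levels per length use merged GENCODE M21 exons; name, chromosome and start of each gene match that release. Promoter windows are from RefSeq (GRCm38.p6). The procedure was tested on simulated data. Alternatives used DESeq2 1.42.0 and limma 3.58.1, other scalings and filters, each library left out, a replicate block and level terms.

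Groups come from the genotype labels and replicate numbers from the titles. The 49 genes, their roles and the other lists were chosen with earlier results of these data known. Values in every library are given for called members, for the smallest p, highest level and lowest fold change in each role, and for Mki67, Top2a, Cdk1, Ccnb2, Aurkb and Cenpa; up to 4 genes of each other list are named by p. Other names were chosen after their values were seen. Replicates within a group differed by more than counting noise (chi-square per degree of freedom 22.3 to 41.0).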

Additional observations from a re-analysis of the deposited data

How the results depend on the processing

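With other settings, the number of the 49 genes called higher was 21 with library totals, 26 with DESeq2, 2 with limma-voom, 25 with edgeR's likelihood ratio test, 18 at an adjusted p under 0.1 and 0 under 0.01, against 4. In edgeR fits with the erythroid, epithelial or Xist level as a term it was 0, with 10, 5 and 35 higher at an unadjusted p under 0.05. Leaving out 1 library gave 0 to 12. Of the 69 other mitotic genes, 3 were called, against 8 with library totals, 12 with DESeq2, 12 with the likelihood ratio test, 7 at 0.1, 0 at 0.01, 0 with any of these terms and 0 to 5 with a library left out. The median log2 fold change of the 49 genes was 0.82 with library totals, where all genes shifted to a median of 0.21, so that it stood 0.61 above them. It was 0.31 on log2(value + 10) of the normalized table, 0.30 with the erythroid and 0.32 with the epithelial term, and 0.53 to 0.73 with a library left out, when 44 to 48 genes were positive. Nek2, Cdca3 and Ncapd2 were called in 1 of these 6 fits and Ckap2 in 0 (adjusted p 0.0503 to 0.139). Replicate numbers 3 and 5 occur in both groups. The labels speak of paired samples without naming the pairs, and do not say what a number marks. Deviations of same-numbered libraries correlated at 0.267 and -0.144, and those of other pairs at -0.447 to 0.300, which does not settle whether the numbers pair them. With this replicate block, 0 of the 49 and 0 of the other mitotic genes were called (30 and 22 at an unadjusted p under 0.05, edgeR), with a median of 0.61, while 19 genes in all were called higher. Of the 49 genes, 6 turned negative with the erythroid term (Cbx5, Gas2l3, Gtse1, Hjurp, Lbr, Smc4), 7 with the epithelial term (these and Cdca2), and up to 3 with a library left out (Hjurp, Gas2l3, Lbr). Among those described per library, the values that changed sign were those of Ckap5 (0.11 with library totals; 0.0018 without mutant replicate 3; -0.15 to 0.0018 with a library left out), Cbx5 (-0.037 and -0.028 with the erythroid and epithelial terms), Smc4 (-0.084 and -0.12) and Hjurp (-0.70 and -0.48 with those terms, -0.054 with limma-voom, -0.039 and -0.028 on the normalized table with 1 and 10 added, -0.12 with the block, -0.14 to 0.27 with a library left out). The cause of these changes was not tested. Counts of the least abundant members, such as Cdc25c with 28 to 84 per library, limit their precision.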

Other observations

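The promoter letters common among the G2/M genes also occur elsewhere. Of 11535 other tested genes with a window, 126 (1.09%) held TTTGAA within 50 bases of the start together with CCAAT in the 120 bases before it, as did 18 of the 42 G2/M genes with a window (42.9%). Of these 126, 80 (63.5%) had a positive log2 fold change, against 52% of all tested genes, and their median was 0.14. By edgeR's test across all genes 0 were called higher and 4 lower, and 32 (25.4%) were higher at an unadjusted p under 0.05, against 7.13% of all tested genes. Of the 126, 18 belong to the other mitotic genes, and all 18 of those had positive values (median 0.55, 11 higher at an unadjusted p under 0.05). The 104 in none of the mitotic, regulator and replication lists had a median of 0.02, with 58 (55.8%) positive and 20 (19.2%) higher at an unadjusted p under 0.05.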
